A study of Arabidopsis thaliana with 9 samples.

Results

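Nuclear genes whose transcripts stood above both inbred parents in an Arabidopsis thaliana hybrid are described here, 35 of 13264 nuclear genes that 13415 probe sets of the array measure singly. They were chosen by the measured signals in F1 and in both parents: the mean of the 3 F1 arrays had to be at least 200 and at least 1.4 times the mean of each parent, and the lowest F1 array had to lie above all 6 parental arrays. These thresholds were met by 45 genes (0.335% of the 13415 probe sets), and 10 of them, early wound and jasmonate genes and genes repressed by sugar among them, were left out by name. The remaining 35 (0.261%) are called the members. Levels in F1 against either parent are therefore given as a description, with no test, and only the difference between the parents was tested. The thresholds did not compare the parents with each other. They did cap both below F1, so this test is not independent of the choice.

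Whole rosettes were collected at 15 days from sowing as 3 biological replicates of each of 3 groups: the F1 hybrid (C24 x Col), the accession C24 and the accession Col-0, called Col. All groups grew on Murashige and Skoog agar at 22 °C with 12 h of light, per the labels. Each RNA sample was hybridised to 1 one-colour Affymetrix array, and a value is a MAS5 signal, a linear brightness that combines the probes of a probe set. Which line was the seed parent, how many plants made up a sample and the hour of harvest are not known from the labels.

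A hybrid carries 1 genome copy from each parent, so a transcript whose 2 copies work as they do in the parents is found near the mean of both, the mid-parent level. A transcript above the higher parent cannot be reached by such averaging and is called over-dominant in expression. Crosses of C24 with Col are known for seedlings and rosettes that outgrow both parents. In whole rosettes, more transcript per cell and more cells of a kind that holds the transcript cannot be told apart.

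The 9 arrays had median signals between 158.5 and 174.4 and mean signals, after trimming 2% at either end, between 495.1 and 496.1, so each is read relative to the rest of its array. Across the 13648 probe sets bright enough to be tested, log2 signals correlated at 0.978 to 0.980 among F1 arrays, at 0.978 to 0.983 among C24 arrays and at 0.979 to 0.982 among Col arrays. Of 7 markers of rosette leaves the annotation names 4 (RCA, LHCB4.2, PRK and SBPASE), whose summed signal ran from 100392 to 101728 in F1, from 83706 to 86945 in C24 and from 99007 to 114536 in Col. Of 6 root markers it names 2, PYK10 and EXPA7, which together reached 1834 to 2123 in F1, 88.0 to 174 in C24 and 2500 to 2958 in Col. In F1 and Col nearly all of this was PYK10, with means of 1985 and 2726. EXPA7 averaged 26.4 in F1, 26.6 in C24 and 24.1 in Col. The guard cell gene FAMA reached 174 to 244 in F1, 136 to 201 in C24 and 131 to 243 in Col, and the meristem gene CLV3 lay between 4.92 and 49.1, 2.70 and 6.40, and 1.67 and 21.7. Each was the 1 gene named of 4 markers of its kind. Markers of trichomes, flowers, seeds and vasculature were not analysed here. The part of tissue make-up in the results was not tested.

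Most members stood moderately above the higher parent. The ratio of the F1 mean to the higher parental mean had a median of 1.63 over the members, a log2 ratio of 0.71, beside a median log2 ratio of -0.15 over the 7272 tested nuclear probe sets. The thresholds require a ratio of at least 1.4, so the members' median had to lie above that of all tested nuclear probe sets. The ratio was at least 1.5 in 24 members and at least 2 in 3, and 1 member, AT3G22240, stood far from the others at 14.2. In 12 members the F1 mean was at least as large as the sum of both parental means. Against the lower parent the ratio was at least 2 in 20 members. The 10 genes left out by name had ratios of 2.07 to 3.99 to the higher parent, each above all members but AT3G22240, AT1G72940 (2.52) and AT4G10910 (2.18).

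**Figure D1:**
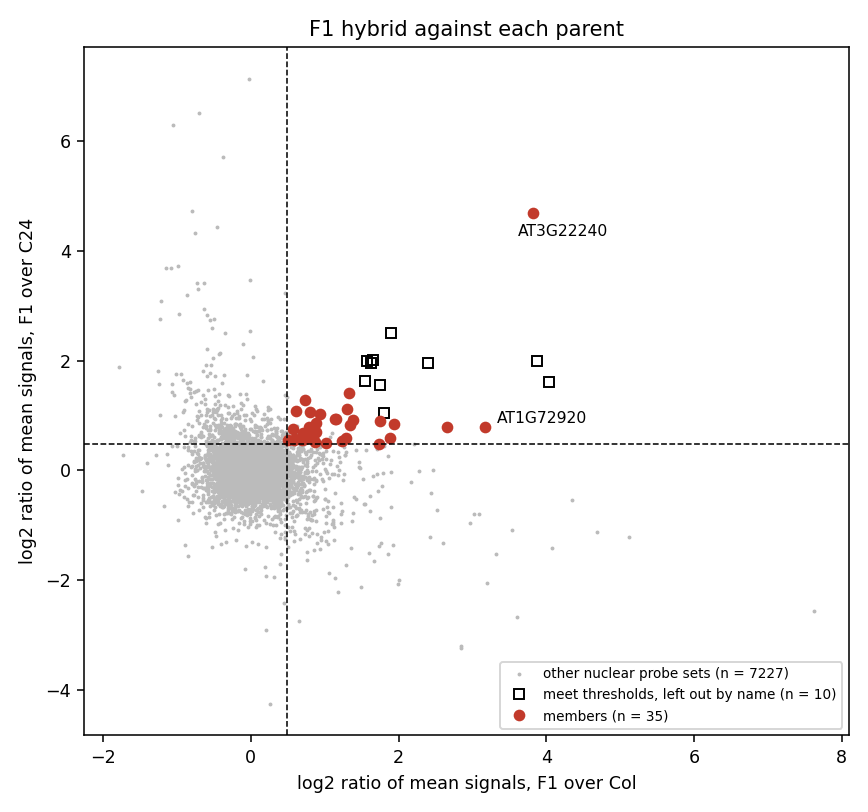
Log2 ratio of the F1 mean to the C24 mean (vertical axis) against the log2 ratio of the F1 mean to the Col mean (horizontal axis) for tested nuclear probe sets; red points are the 35 members, open squares the 10 genes left out by name, and dashed lines the ratio of 1.4. AT3G22240 lies apart from every other member, and AT1G72920 is the member furthest to the right after it, at 1.73 times C24 and 9.004 times Col.

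The distance between the groups was narrow in places. The lowest F1 array was 1.24 times the highest parental array at the median, at least 1.5 times in 9 members and under 1.1 times in 4. Just inside the ratio of 1.4 were AT4G23870 (1.40004), AT1G23710 (1.41) and AT2G40280 (1.41), and just outside were XERICO (1.397), AT5G46780 (1.380) and AT4G27450 (1.376). The plot of every array shows this order, with the F1 arrays to the right of the parental ones in each row.

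**Figure D2:**
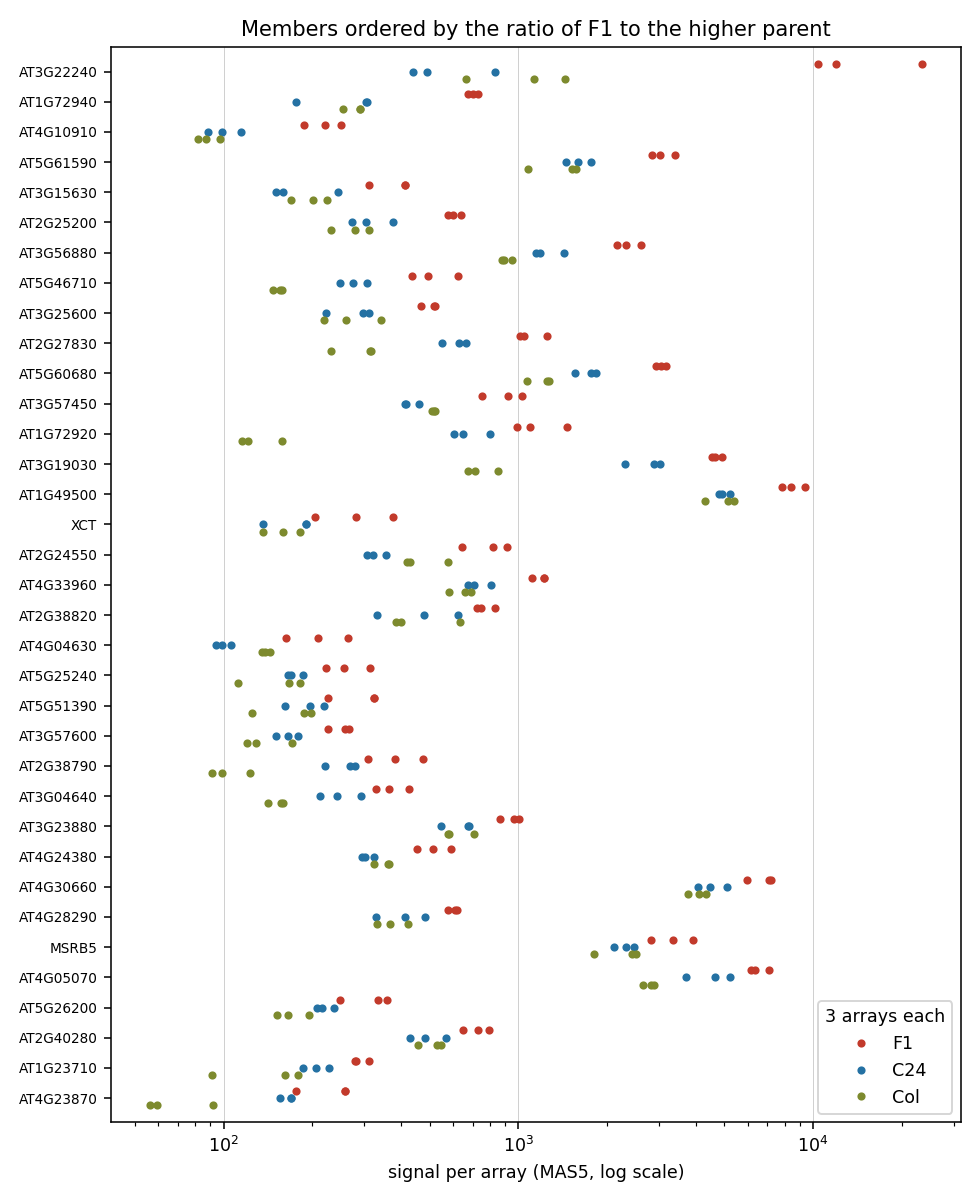
Signal on each of the 9 arrays (horizontal log axis, MAS5 signal) for the 35 members, ordered from top to bottom by the ratio of F1 to the higher parent; red points are F1, blue C24 and olive Col, 3 arrays each. AT3G22240 has its F1 arrays between 10371 and 23494 while no parental array passes 1442, and in AT4G23870 at the bottom the lowest F1 array (176) is close to the highest C24 array (170).

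AT3G22240 was both the brightest member in F1 and the one with the highest ratio. In RefSeq gene order it lies beside AT3G22235 and PCC1 (pathogen and circadian controlled 1), a gene known for its response to pathogens and for its daily rhythm, with pseudogenes in between. AT3G22240 gave 11946, 23494 and 10371 in F1, against 490, 438 and 833 in C24 and 1129, 663 and 1442 in Col. The groups of F1 and parents lay far apart, F1 replicate 2 stood at about the sum of the other F1 arrays, and the parental arrays overlapped. Its mean was 15270 ± 7165 in F1, 587 ± 215 in C24 and 1078 ± 392 in Col (SD, n = 3 each). Without F1 replicate 2 the ratio to the higher parent was 10.3. The named gene next to it on the other side, AT3G22250, averaged 62.8 in F1, 67.6 in C24 and 75.8 in Col, below the filter for testing. PCC1 and AT3G22235 were not analysed here, and whether the probe set also binds their transcripts was not tested.

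A pair of members came from a cluster of immune-receptor genes on chromosome 1. AT1G72920 and AT1G72940 flank the gene that RefSeq names TIR (AT1G72930), after the Toll/interleukin-1 receptor domain, which plant immune receptors use to start defence signalling; both belong to the same family. AT1G72940 gave 674, 700 and 729 in F1, against 306, 176 and 305 in C24 and 254, 291 and 290 in Col, a ratio of 2.52 to the higher parent. The parental arrays overlapped and all F1 arrays stood well above them. AT1G72920 gave 989, 1098 and 1462 in F1, against 647, 604 and 800 in C24 and 121, 158 and 115 in Col. Here F1 stood above a high C24 and a low Col, 1.73 times the one and 9.004 times the other.

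Other named genes of the cluster did not have all F1 arrays above all parental arrays. AT1G72900 gave 585, 655 and 363 in F1, against 409, 307 and 530 in C24 and 182, 184 and 177 in Col, with F1 and C24 overlapping. Its means of 534, 415 and 181 still ran in the order F1, C24, Col, as in AT1G72920. AT1G72890 gave 326, 391 and 335 in F1, against 166, 131 and 171 in C24 and 389, 433 and 423 in Col, so that F1 lay near Col. Both differed between the parents and in opposite directions, AT1G72900 by 1.16 and AT1G72890 by -1.42 on the log2 scale, C24 minus Col (limma, adjusted p = 0.000717 and 3.67e-06). Further named genes nearby were dim and below the filter for testing. AT1G72950, next to AT1G72940, averaged 39.6 in F1, 80.9 in C24 and 16.3 in Col. AT1G72860 averaged 72.9, 59.8 and 67.4, and AT1G72870 58.3, 59.8 and 70.1, in F1, C24 and Col. Genes of one family can share probe sequence, and signal shared between the genes of this cluster was not tested.

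**Figure D3:**
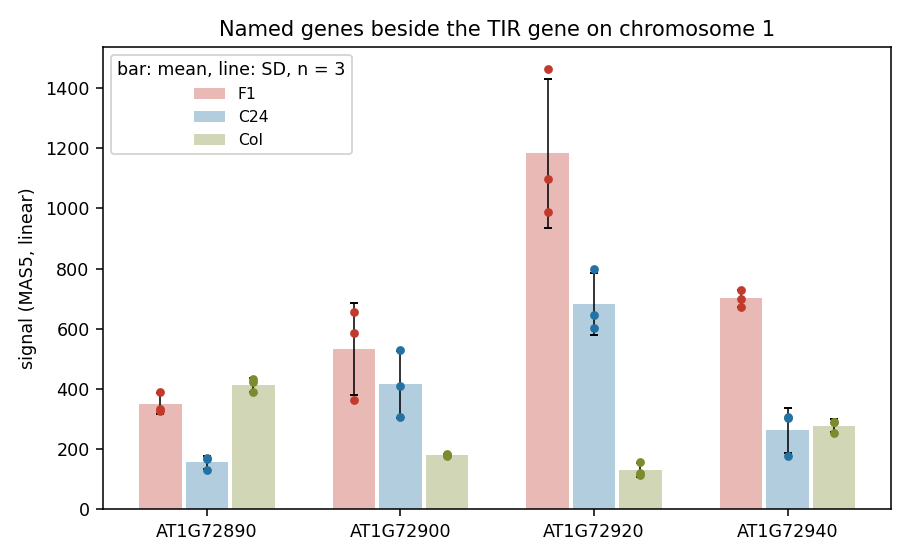
Signal (vertical axis, linear MAS5 signal) of 4 named genes beside the TIR gene in the order of the chromosome; bars are means of 3 arrays in F1, C24 and Col, lines the SD and points the arrays. In AT1G72940 F1 averages 701, against 262 in C24 and 278 in Col, whereas AT1G72890 averages 351 in F1, near 415 in Col.

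Several members encode regulators of transcription. For this and the next paragraphs, protein families of genes that the tables list only by locus code are background knowledge. AT5G61590 is DEWAX, an AP2/ERF factor that represses wax biosynthesis genes, chiefly in the dark. It gave 3389, 2833 and 3027 in F1, against 1589, 1453 and 1765 in C24 and 1515, 1076 and 1564 in Col. The parental arrays overlapped, and F1 averaged 1.92 times C24, the higher parent. AT3G57600, a further AP2/ERF gene, stood much lower, with 258, 266 and 225 in F1, against 151, 166 and 178 in C24 and 120, 128 and 170 in Col.

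AT5G46710, of the plant-specific PLATZ zinc-finger family, gave 624, 434 and 495 in F1, against 306, 247 and 274 in C24 and 147, 158 and 156 in Col. The 3 groups did not overlap, with Col lowest. AT3G56880 has a VQ motif, found in partners of WRKY transcription factors, and gave 2161, 2325 and 2601 in F1, against 1146, 1433 and 1183 in C24 and 891, 953 and 880 in Col, again in the order F1, C24, Col. XCT (XAP5 circadian timekeeper), a gene needed for normal clock period, gave 282, 377 and 205 in F1, against 136, 190 and 190 in C24 and 159, 136 and 182 in Col. Its lowest F1 array was 1.08 times the highest parental one, and its ratio of 1.67 was 1.42 without F1 replicate 2.

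Among signalling genes, AT3G25600 encodes an EF-hand protein of the calmodulin-like kind, which bind calcium. It gave 522, 468 and 516 in F1, against 298, 222 and 312 in C24 and 219, 341 and 260 in Col, with the parents overlapping. AT3G23880, an F-box gene of the kind that selects proteins for degradation, averaged 944 ± 70.7 in F1, 633 ± 75.6 in C24 and 622 ± 74.9 in Col (SD, n = 3 each), a ratio of 1.49.

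AT4G30660 and AT4G05070 are shown for their high F1 signal. AT4G30660, of the family of small membrane proteins responsive to low temperature and salt, gave 5970, 7188 and 7076 in F1, against 4079, 4479 and 5094 in C24 and 3751, 4327 and 4091 in Col. AT4G05070, of the wound-responsive protein family, gave 7088, 6344 and 6143 in F1, against 5219, 3704 and 4644 in C24 and 2649, 2896 and 2814 in Col. The first had overlapping parents and the second had C24 between F1 and Col. MSRB5, a methionine sulfoxide reductase that repairs oxidised methionine in proteins, gave 3358, 2810 and 3907 in F1, against 2118, 2321 and 2473 in C24 and 2497, 1805 and 2438 in Col. Its neighbours of the same family stood nearer to the parents in F1: MSRB6 averaged 3995, 3630 and 3331, and MSRB3 376, 353 and 319, in F1, C24 and Col.

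Values of 3 further members with a known enzyme or carrier family follow. AT5G26200, a mitochondrial substrate carrier family gene, averaged 313 ± 57.4 in F1, 220 ± 15.1 in C24 and 171 ± 22.0 in Col. AT2G40280, a methyltransferase of the family linked to pectin synthesis in the Golgi, averaged 723 ± 74.6 in F1, 493 ± 70.4 in C24 and 512 ± 49.0 in Col. AT4G24380, of a serine hydrolase family, averaged 519 ± 68.1 in F1, 307 ± 15.5 in C24 and 350 ± 22.9 in Col (SD, n = 3 each). Their ratios to the higher parent were 1.42, 1.41 and 1.49. The glycine-rich protein gene AT3G04640 had a ratio of 1.499, with 373 ± 48.3 in F1, 249 ± 40.1 in C24 and 152 ± 9.65 in Col.

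Of the 35 members 33 are named by a locus code only, as are 86.3% of the tested nuclear probe sets. Most remaining members have no assigned function that can be given with confidence. The brightest was AT1G49500, with 7858, 8405 and 9352 in F1, against 4891, 5211 and 4807 in C24 and 4296, 5373 and 5128 in Col. The parents overlapped and F1 was 1.72 times C24. AT3G19030 reached the same ratio to the higher parent, 1.72, from unlike parents, with 4896, 4536 and 4659 in F1, against 3019, 2877 and 2294 in C24 and 853, 711 and 676 in Col. Its F1 mean was 6.29 times the Col mean.

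AT2G27830 gave 1248, 1015 and 1047 in F1, against 629, 550 and 662 in C24 and 231, 316 and 315 in Col. AT2G38790 gave 308, 473 and 380 in F1, against 279, 221 and 268 in C24 and 91.4, 99.0 and 123 in Col. In both the 3 groups stood apart in the order F1, C24, Col. AT2G38820, 3 protein-coding genes further along chromosome 2, had overlapping parents, with 767 ± 56.1 in F1, 478 ± 147 in C24 and 472 ± 139 in Col.

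AT5G60680 and AT4G04630 belong to 1 plant family of small proteins known from a gene of senescing barley leaves. AT5G60680 gave 2942, 3045 and 3157 in F1, against 1828, 1765 and 1560 in C24 and 1250, 1274 and 1073 in Col. AT4G04630 gave 264, 209 and 163 in F1, against 106, 94.4 and 99.0 in C24 and 134, 139 and 144 in Col. The pair shared the order of F1 to parents but not that of the parents, C24 being the higher one for AT5G60680 and Col for AT4G04630.

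AT3G57450 gave 924, 1028 and 751 in F1, against 414, 416 and 459 in C24 and 510, 519 and 521 in Col. AT2G24550 gave 918, 818 and 645 in F1, against 355, 320 and 306 in C24 and 418, 579 and 429 in Col. These are members in which Col was the higher parent, with no overlap between the parents. AT3G15630 gave 412, 312 and 412 in F1, against 159, 151 and 245 in C24 and 202, 170 and 224 in Col, where the parents overlapped. AT2G25200 gave 641, 578 and 598 in F1, against 376, 272 and 304 in C24 and 311, 232 and 280 in Col. AT4G10910, the dimmest of the 15 with the highest ratios, gave 250, 221 and 187 in F1, against 115, 88.3 and 99.0 in C24 and 87.3, 81.8 and 97.2 in Col, near the filter signal of 89.9. Both had overlapping parents.

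The other 6 members were AT4G33960, AT5G25240, AT5G51390, AT4G28290, AT1G23710 and AT4G23870. Their ratios to the higher parent, C24 in each, were 1.63, 1.52, 1.52, 1.48, 1.41 and 1.40004. AT4G33960 was the brightest of them, at 1187 ± 62.5 in F1, 728 ± 68.8 in C24 and 645 ± 55.4 in Col (SD, n = 3 each), and AT4G23870 the dimmest, at 231 ± 47.7 in F1, 165 ± 8.19 in C24 and 69.2 ± 20.0 in Col.

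The comparison of C24 with Col asked how the parental levels of these genes stood to each other. All 35 members passed the filter on low signals, to which their F1 arrays contribute. Both parents were capped below F1 by the thresholds, and the fit also takes its spread from the F1 arrays. The counts below are therefore not independent of the choice of members. Of the 35, 10 were higher in C24 and 2 were lower in C24 at an adjusted p of 0.05 in limma, fitted to all 9 arrays and adjusted over 13648 probe sets; 23 did not pass. Of the members 34.3% were called, 28.6% higher and 5.71% lower in C24. Over the 7272 tested nuclear probe sets 29.7% were called, 15.4% higher and 14.3% lower, and over all probe sets 30.9%, 15.7% and 15.2%. The median log2 difference, C24 minus Col, was 0.18 over the members and 0.04 over the nuclear probe sets. Over all probe sets 2139 were higher and 2081 lower in C24, and 1614 and 2605 after each array was centred on its median; the members' counts were 10 and 2 under that scaling too. An exact test of 3 against 3 arrays cannot go below p = 0.1, so the calls use limma. It estimates the spread between the biological replicates of all 3 groups with the help of all probe sets. Each p-value weighs a difference against that spread.

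AT1G72920 had the largest difference, with 684 ± 103 in C24 and 131 ± 23.2 in Col, 2.38 on the log2 scale (SE 0.17, limma adjusted p = 4.78e-08). AT3G19030 followed at 1.87 (SE 0.12, adjusted p = 1.18e-08), and AT2G38790 at 1.30 (SE 0.19, adjusted p = 0.000101). AT4G23870 (1.29), AT2G27830 (1.105), AT5G46710 (0.84), AT3G04640 (0.70), AT4G05070 (0.69), AT5G60680 (0.52) and AT3G56880 (0.46) were also higher in C24. By the choice of members, F1 stood above C24 in all 10. A difference in transcript and a difference in the DNA sequence under a probe cannot be told apart between 2 accessions.

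AT2G24550 was lower in C24, with 327 ± 25.1 in C24 and 476 ± 89.8 in Col, -0.53 on the log2 scale (SE 0.16, limma adjusted p = 0.0188). Its call was lost without Col replicate 2 (-0.37, adjusted p = 0.106) and without C24 replicate 3 (-0.48, adjusted p = 0.0636), in a range of 0.00970 to 0.106 over the alternatives. AT3G22240 was lower in C24 by -0.87 (SE 0.31, limma adjusted p = 0.0426), although its parental arrays overlapped. That call was lost without Col replicate 1 (-0.80, adjusted p = 0.119), Col replicate 3 (-0.62, 0.184), C24 replicate 1 (-0.76, 0.120), C24 replicate 2 (-0.68, 0.144) or F1 replicate 1 (-0.87, 0.0502), with no filter (0.0735) and with no intensity trend (0.117), in a range of 0.0121 to 0.184.

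Of the 23 members that did not pass, 2 had an unadjusted p under 0.05: AT1G23710 (0.58, SE 0.22, adjusted p = 0.0642) and AT4G04630 (-0.48, SE 0.22, adjusted p = 0.108). AT1G23710 passed without Col replicate 2 (0.76, adjusted p = 0.0294) and was at 0.28 without Col replicate 3, and AT4G04630 passed with no intensity trend (adjusted p = 0.0487). Differences close to 0 were found for AT2G38820 (0.01, SE 0.21), AT1G49500 (0.02, SE 0.10), AT3G23880 (0.02, SE 0.13), AT3G25600 (0.03, SE 0.18) and MSRB5 (0.05, SE 0.14). In these members F1 stood above 2 parents with almost the same mean. AT1G72940 differed by -0.13 (SE 0.18, limma adjusted p = 0.646).

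**Figure D4:**
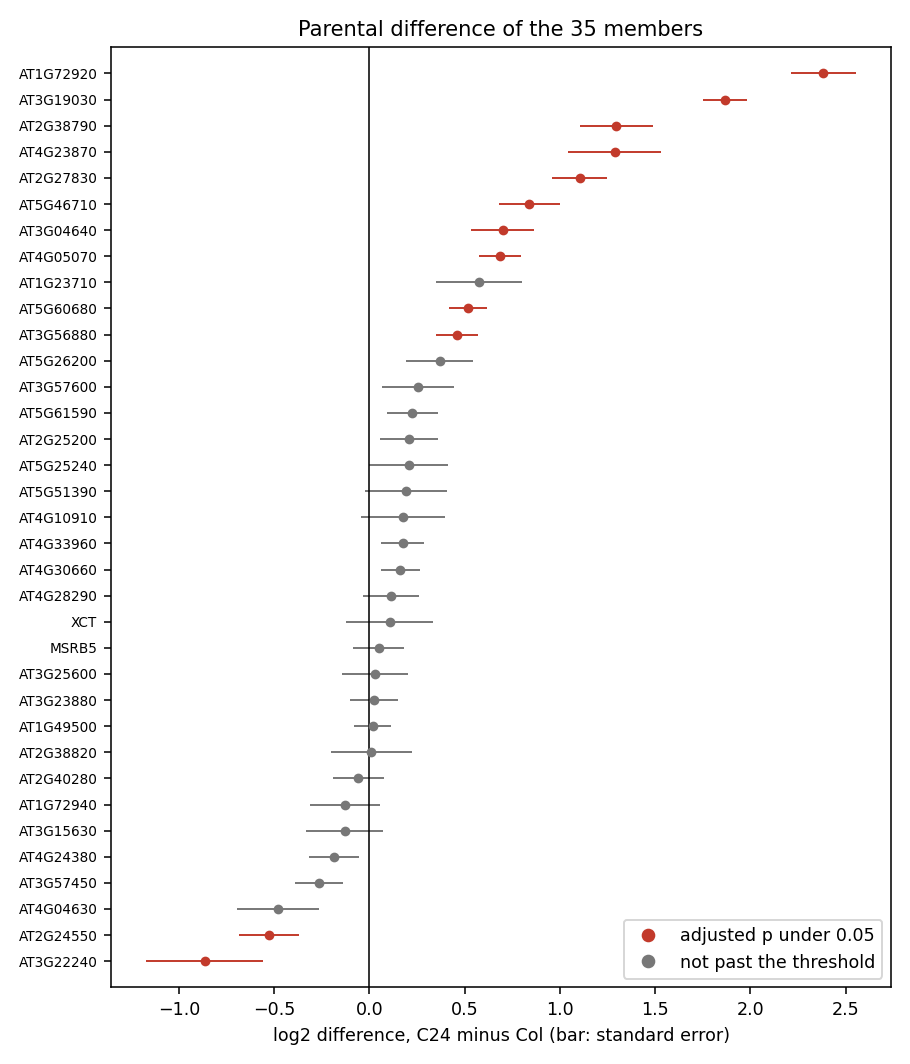
Log2 difference between the parents, C24 minus Col (horizontal axis), with its standard error from limma for each of the 35 members; red points passed an adjusted p of 0.05 and grey points did not. The difference runs from 2.38 in AT1G72920 to -0.87 in AT3G22240, and 27 members have C24 as the parent with the higher mean signal.

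The members' F1 arrays did not share a single order, though replicate 1 was most often the highest and replicate 2 most often the lowest. F1 replicate 1 was the highest F1 array in 18 members, replicate 2 in 7 and replicate 3 in 10, and the lowest was replicate 2 in 17. The coefficient of variation had a median of 11.5% in F1, 11.9% in C24 and 12.9% in Col over the members, beside 10.3%, 8.77% and 9.94% over nuclear probe sets with an F1 mean of at least 200. The thresholds favour members with close F1 arrays and keep every parental array under them. The values for F1, C24 and Col are therefore no independent measures.

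The members were short genes. The RefSeq length from gene start to gene end had a median of 1290 bases over the 35 members and 2366 bases over the tested nuclear probe sets, or 2335 bases over those with an F1 mean of at least 200. Of the members, 33 (94.3%) were shorter than the median tested gene, and 8 (22.9%) were shorter than 1000 bases, against 5.07% of tested nuclear probe sets. AT3G19030 (497 bases), AT5G51390 (498 bases) and AT4G05070 (531 bases) were the shortest, and XCT (3075 bases) and AT2G40280 (3011 bases) the longest. The 10 genes left out by name had a median of 1362 bases. Length was looked at after the members were known and is a description.

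**Figure D5:**
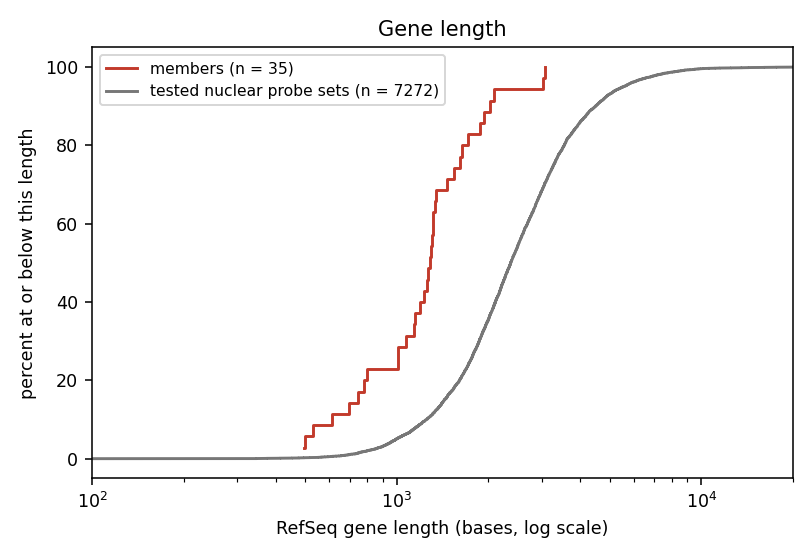
Percent of genes at or below a given RefSeq length (vertical axis) against gene length in bases (horizontal log axis) for the 35 members (red) and the tested nuclear probe sets (grey). The red curve lies to the left, with medians of 1290 and 2366 bases.

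The members were spread over the genome. Chromosomes 1 to 5 held 4, 7, 9, 9 and 6 members, or 11.4%, 20.0%, 25.7%, 25.7% and 17.1%, against 25.9%, 14.5%, 20.8%, 14.6% and 24.2% of the tested nuclear probe sets. Apart from the TIR pair and the AT2G38790 and AT2G38820 pair, no member had another member among the 6 protein-coding genes on either side. The 124 tested neighbours that were not members had a median log2 ratio of F1 to the higher parent of -0.15, the same as the tested nuclear probe sets, and the highest ratio among them was 1.33, for AT3G56830. AT4G28240, a gene of the wound-responsive family like AT4G05070 and a neighbour of the member AT4G28290, had a ratio of 1.32, with 2821 ± 339 in F1, 2130 ± 132 in C24 and 1906 ± 41.5 in Col (SD, n = 3 each).

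Other genes of response pathways were taken from 8 lists, which hold none of the 10 genes left out by name. Of the 130 listed genes (genes repressed by sugar, rapid wound and jasmonate, cold and abscisic acid, heat, cell wall loosening, clock and light, phosphate and sulphur starvation, photosystems and Calvin-Benson cycle) the annotation named 27, and 20 were tested. Of these 20, 0 had all F1 arrays above all parental arrays; over the tested nuclear probe sets that share was 2.72%, so a count of 0 in 20 genes is no sign of a difference. Their median log2 ratio of F1 to the higher parent was -0.12, beside -0.15 over the tested nuclear probe sets. The cold genes COR15A and COR15B had F1 means 1.07 and 0.942 times the higher parent, and the rapid-response calcium gene CML38 1.60 times, with 144 ± 38.9 in F1, 90.4 ± 11.5 in C24 and 67.4 ± 19.0 in Col. Between the parents, 3 of the 20 list genes were higher in C24 (COR15A, COR15B and GI) and 7 lower, beside 15.7% higher and 15.2% lower over all tested probe sets. Of the 7, 4 came from the list of photosystems and the Calvin-Benson cycle. The other listed genes were not analysed here, so nothing is read from these counts about the pathways.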

How the data were processed

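The deposited values are intensity values, linear MAS5 signals of 9 one-colour arrays, 1 per probe set and array, per the submitters' processing notes; its version, settings and scaling target are not stated there. The platform annotation gave 1 gene for 13513 of 22746 probe sets (array controls set aside), several for 503 and none for 8730. Genes were placed through RefSeq (TAIR10.1) by gene identifier (13436) or locus code (48); 29 were not placed. No coordinates are given because no build is named for the probes, and no promoter or protein sequence was used here.

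Signals were log2-transformed. Probe sets with a mean log2 signal under the 40th percentile (6.49, a signal of 89.9) were not tested. limma 3.58.1 in R 4.3.3 fitted 1 mean per group to all 9 arrays (lmFit, eBayes with intensity trend); p-values are two-sided, adjusted by Benjamini-Hochberg, with a threshold of 0.05. The fit was tested on simulated data for C24 minus Col over 13648 probe sets: it recovered 78% of 100 genes changed by 1 and 95% of 100 changed by 2 on the log2 scale, with 10 false calls. Only those genes were changed, whereas 30.9% of probe sets were called in the data, so these rates do not carry over directly. Smaller changes were not simulated. Members not called differed by at most 0.58, so the simulation says nothing about them. The number of arrays, not read depth, limits the precision. The members, the gene lists and the tests were chosen with earlier results of these data known. Every member is named; values on every array are given for the 15 with the highest ratio to the higher parent, the 5 brightest in F1, the 3 highest and the 3 lowest called differences between the parents (2 were called lower), and members that share a family or role with those. Alternatives changed the scaling, filter, offset, trend, arrays and block. In the rule, EXLB1 and TET8 are named to be left out but do not reach the thresholds here, and 0 genes named CYP or UGT do.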

Additional observations from a re-analysis of the deposited data

How the results depend on the processing

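The number of genes meeting the rule was 38 with quantile normalization, 38 with median centring and 34 with geometric means, each sharing 34 with the reported 35. It was 24 at a ratio of 1.5, 3 at a ratio of 2, 54 with an F1 mean of at least 100 and 23 with at least 400. Leaving out 1 array gave 33 to 51, of which at least 28 were members, and the 51 came without F1 replicate 2. Of the 35, 21 met the rule in all 9 of these and all 3 rescalings, and 14 missed it at least once. Among the 14, AT4G23870 and AT2G40280 missed it most often, each found in 6 of the 9 and 2 of the 3. AT5G26200 was found in 6 and 3, and AT4G05070 in 7 and 2. AT2G38790 missed it only without F1 replicate 2. The members' median log2 ratio of F1 to the higher parent was 0.65 to 0.74 without 1 array. Between C24 and Col, 3348 to 4348 probe sets passed without 1 array and 3207 to 4471 under the other alternatives, with 10 to 11 members higher without 1 array and 7 with the 60th-percentile filter, where fewer probe sets were tested. Members lower in C24 numbered 1 to 2 without 1 array and 1 with no filter. Of 12 called members 10 kept their call under every alternative that tested them, and 0 changed sign. Same-numbered C24 and Col arrays deviated together at -0.0015 to 0.117, and 4 of 6 correlated best with their own number. The range was 0.0892 to 0.117 for F1 and C24 and 0.0153 to 0.113 for F1 and Col. The labels do not say that the numbers pair samples, so pairing was not assumed, and it is not excluded. With the replicate number as a block 4471 probe sets passed, against 4220 as reported, with 10 members higher and 2 lower. MAS5 detection calls were not used here, so no limit of detection is given for signals near the filter.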

Other observations

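Among the 9233 probe sets to which the annotation gives no gene or several, 54 met the same thresholds, more than the 45 named nuclear ones; they have no name here and are not described. The mirrored rule, with F1 at least 1.4 times below both parents, both parental means at least 200 and the highest F1 array under all parental arrays, was met by 10 nuclear probe sets, against 45 for the rule as used. The floor of 200 held for both parents in the mirrored rule and for F1 alone in the rule as used. The counts are therefore not matched, and the part of the floor in their difference was not tested.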
